A study of Mus musculus with 2 samples.

Results

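The myosin heavy chain genes Myh6, Myh7, Myh7b, Myh9, Myh10, Myh11 and Myh14 were followed through heart RNA of young mice. They were chosen by name as the class II heavy chains of cardiac, smooth muscle and non-muscle cells, with earlier results of these data known. All 7 were found among 55536 annotated genes. The series held 1 group of 2 libraries of total RNA, replicates 1 and 2, from heart tissue of female B6CASTF1/J mice (hybrids of C57BL/6J and CAST/EiJ) at an age of 14 days, with 300 ng of RNA per library and ERCC spike-in RNAs added. No treatment, genotype or other age stood beside them, so levels, transcripts and the gap between the libraries are described and no test between groups was possible. Both libraries carry 1 donor label, while the tissue labels number the animals differently and a shared note speaks of 3 females, so each SD (n = 2) is the spread between 2 libraries and may be partly technical.

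A class II myosin is a pair of heavy chains, each with a motor head that splits ATP and pulls on actin, a neck that binds an essential and a regulatory light chain, and a coiled-coil tail that packs into filaments. In rodent ventricles the slow beta chain, from Myh7, prevails before birth and the fast alpha chain, from Myh6, after it, a switch that thyroid hormone drives. Myh7b encodes a slow-type chain, Myh11 the chain of smooth muscle, and Myh9, Myh10 and Myh14 the non-muscle myosins IIA, IIB and IIC of cell division, adhesion and migration.

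Replicate 1 held 36404376 expected counts and replicate 2 held 34569708, of which 1120532 and 1088024 fell on the 7 members. The cardiomyocyte markers Tnnt2, Tnni3, Actc1, Ryr2 and Actn2, which define the labelled tissue, were all present, with a summed level of 14236 and 15048 TPM (reads per transcript length, scaled to the same sum in each library) in replicates 1 and 2. Fibroblast markers summed to 611 and 604 TPM, endothelial markers to 358 and 362 and smooth muscle markers to 721 and 729. These sums were close between the libraries, but the smooth muscle sum was mostly Des (442 and 436 TPM), which cardiomyocytes also express. Single markers differed more, as the smooth muscle Cnn1 (3.98 and 2.23 TPM) and the endothelial Kdr (37.6 and 46.8 TPM) did. Airway epithelium markers summed to 150 TPM in replicate 1 and 9.31 in replicate 2, blood markers to 24081 and 18474, and atrial markers to 1356 and 1114, each higher in replicate 1.

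Myh6 stood far above every other member. It lies on the minus strand of chromosome 14 (mm10, 54941921 to 54966927) and had 10296 TPM in replicate 1 and 10478 TPM in replicate 2, a mean of 10387 ± 129 (SD, n = 2). That was the 13th highest level of all annotated genes, and its 1065939 and 1033213 expected counts were 2.94% and 3.01% of the counts in annotated genes. Myh6 made up 90.9% ± 0.162 of the summed TPM of the 7 members. Level here means RNA in the whole tissue: fewer cells of a type and less RNA per cell cannot be told apart in bulk samples.

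Myh7 lies 3756 bases away on the same strand (54970684 to 54994626) and came second, with 915 and 895 TPM in replicates 1 and 2, ranking 69th. The libraries differed little, and neither came near the level of Myh6, which was 11.3-fold and 11.7-fold higher in replicates 1 and 2. Myh7b, on the plus strand of chromosome 2 (155611212 to 155634307), had 15.8 TPM in replicate 1 and 20.6 TPM in replicate 2. The 3 striated-muscle genes together held 98.9% ± 0.0216 of the family's summed TPM.

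Among the other 4 members the non-muscle chains led. Myh9 (chromosome 15, 77760587 to 77842175, minus strand) had 58.4 and 64.9 TPM in replicates 1 and 2 and made up 50.6% ± 2.22 of the sum of these 4. Myh14 (chromosome 7, 44605803 to 44670843, minus strand) had 30.3 and 29.2 TPM, and Myh10 (chromosome 11, 68691559 to 68816632, plus strand) had 18.4 and 20.8 TPM. Myh11 (chromosome 16, 14194535 to 14291372, minus strand) was the lowest member, at 11.9 and 9.34 TPM, and even so 89.4% of annotated genes had a lower mean. The 4 summed to 119 TPM in replicate 1 and 124 TPM in replicate 2, beside a striated-muscle sum of 11227 and 11394 TPM.

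The order of mean levels was Myh6, Myh7, Myh9, Myh14, Myh10, Myh7b, Myh11, and 5 of the 6 neighbouring pairs did not overlap between the libraries. The exception was Myh10 and Myh7b, whose ranges overlapped, although Myh10 was the higher in each library. In the second quantification, made from the same libraries by another method, Myh7b stood above Myh10, again with overlapping values. The plot of levels in both libraries shows which genes depend on the method.

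**Figure D1:**
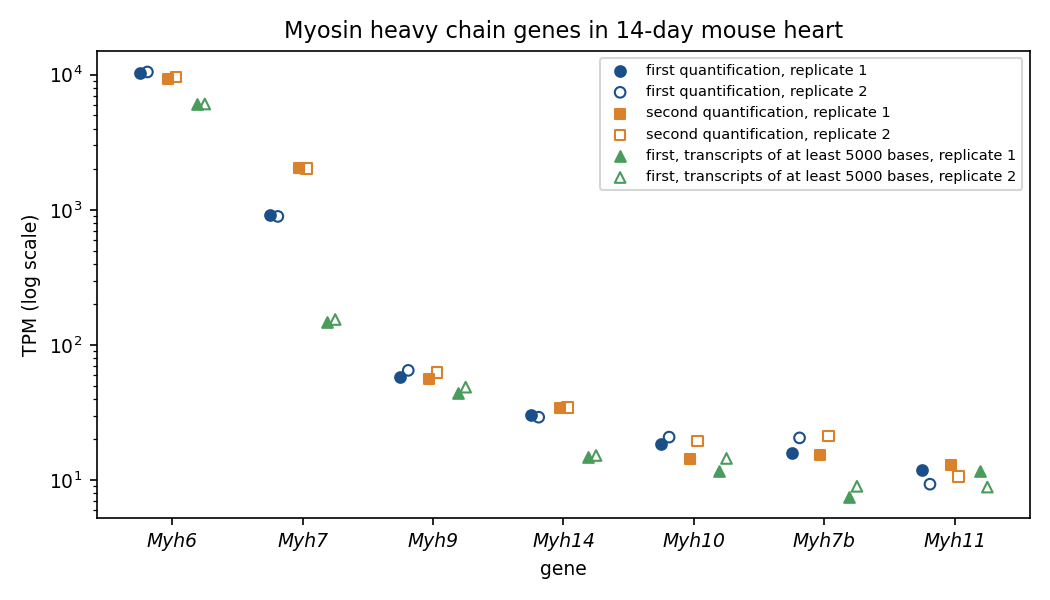
TPM of the 7 heavy chain genes (log axis) in replicate 1 (filled) and replicate 2 (open), from the first quantification, from the second, and from the first with transcripts of at least 5000 bases only. Myh6 has 6052 TPM or more in each, while Myh7 runs from 2056 TPM in the second quantification to 148 TPM in the long transcripts of the first.

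Myh7 was the member whose level depended most on which transcripts were counted. Of its 8 annotated transcripts, the full-length protein-coding Myh7-201 (6135 bases, 41 exons) held 148 and 154 TPM in replicates 1 and 2. Myh7-206, a fragment of 595 bases in 3 exons that the annotation types as a retained intron, held 767 and 740 TPM, so 83.9% and 82.7% of the gene's level. In counts the order was the other way round, since a short transcript turns few reads into a high level per length. Myh7-206 had 10699 and 9962 expected counts, against 25069 and 25305 in Myh7-201. By TPM the second quantification gave Myh7-206 still more, 90.2% and 89.3% of Myh7.

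Only 23 bases of Myh7-206 lie outside the exons of Myh7-201. They are the end of an intron kept at its 5′ end, in capitals here with the exonic bases that follow in lower case (mm10, chr14:54973469-54973528, minus strand, 5′ to 3′, from the GENCODE M21 transcripts).
Myh7-206: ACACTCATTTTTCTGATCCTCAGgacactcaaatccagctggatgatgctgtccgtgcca

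The other 572 bases match Myh7-201 (its positions 5172 to 5743, in the part that encodes the tail) and differ from Myh6-201 at 15 positions, an identity of 97.4%. These are GENCODE M21 sequences, and CAST/EiJ alleles were not compared. In the longest identical run, 200 bases, a read of the reference sequence carries nothing that tells the genes apart, as in this window of 90 bases (Myh7 chr14:54973305-54973394, Myh6 chr14:54946316-54946405, both minus strand), in lower case throughout because no base differs.
Myh7-206: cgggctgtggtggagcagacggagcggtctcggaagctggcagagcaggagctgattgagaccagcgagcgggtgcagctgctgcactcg
Myh6-201: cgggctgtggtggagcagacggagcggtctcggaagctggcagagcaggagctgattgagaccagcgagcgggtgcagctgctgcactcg

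In the least alike window of 90 bases the genes differ at 6 positions, in capitals below (Myh7 chr14:54973080-54973169, Myh6 chr14:54944670-54944759, both minus strand).
Myh7-206: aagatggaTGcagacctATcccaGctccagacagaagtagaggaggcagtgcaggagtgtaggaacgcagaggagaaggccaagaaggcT
Myh6-201: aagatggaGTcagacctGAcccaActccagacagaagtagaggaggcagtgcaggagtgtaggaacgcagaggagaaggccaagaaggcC

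Of the 565 words of 31 bases in Myh7-206, 332 also occur in a Myh6 transcript (58.8%), against 1966 of 6105 in Myh7-201 (32.2%). For windows of 100 bases the shares were 26.2% in Myh7-206 and 11.4% in Myh7-201. Shared sequence of this extent is confined to that pair among the members: Myh7-201 shares 4 words of 31 bases with Myh7b and 0 with Myh9, Myh10, Myh11 and Myh14. Between full-length transcripts of the other members, the largest overlap was Myh9-201 with Myh10, 100 of 7403 words (1.35%).

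**Figure D2:**
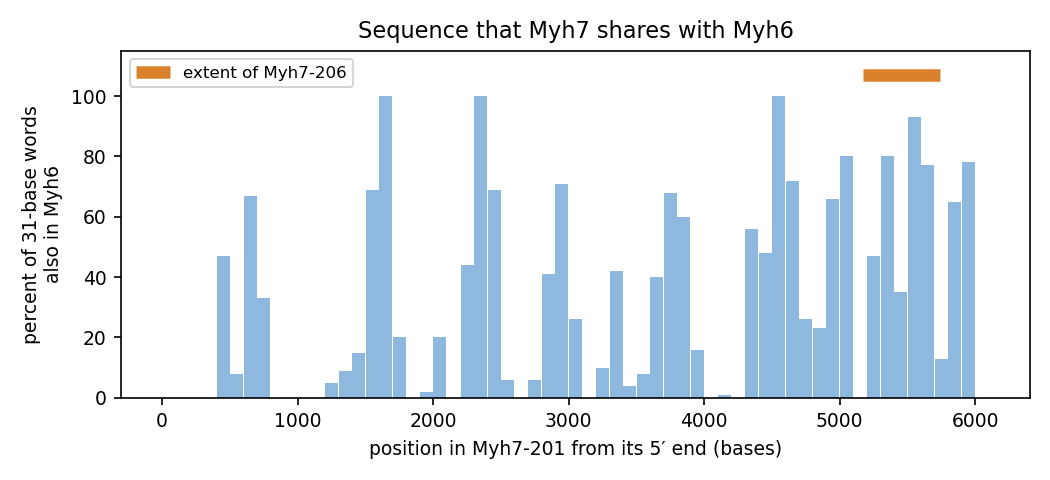
Percent of 31-base words of Myh7-201 that also occur in Myh6 transcripts (vertical axis), in bins along Myh7-201 from its 5′ end in bases (horizontal axis). Shared words rise and fall along the whole transcript, and the orange bar marks positions 5172 to 5743, the extent of Myh7-206.

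More counts per base were allotted to the fragment. Myh7-206 had 21.6 and 20.1 expected counts per effective base in replicates 1 and 2, against 4.15 and 4.19 in Myh7-201, a ratio of 5.19 and 4.79. Myh6-201 exceeded Myh7-201 by 30.1-fold and 27.3-fold on the same scale. The part that reads shared with Myh6 played in the level of Myh7-206 was not tested. Antisense genes overlap it: Mhrt (54968678 to 54974349, plus strand) covers its whole span and had 865 and 731 expected counts in replicates 1 and 2, and Gm29015 lies within the span and had 7 and 6. Their part in the level of Myh7-206 was not tested.

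The share of the beta chain moved with that transcript. Myh7 made up 8.16% and 7.87% of Myh6 plus Myh7 in replicates 1 and 2 by TPM in the first quantification, and 18.1% and 17.4% in the second. With Myh7-206 alone left out it was 1.42% and 1.45% in the first and 2.11% and 2.21% in the second. With transcripts of at least 5000 bases only, a limit chosen after the values were seen, Myh7 made up 2.43% ± 0.0695 (SD, n = 2) and Myh6 exceeded it 40.1-fold. As plain counts, with no correction for length, Myh7 had 3.27% ± 0.0385 of the pair. Myh6 was the higher of the pair in each library under each of these measures, and for any 1 measure the libraries differed by less than 1 percentage point.

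**Figure D3:**
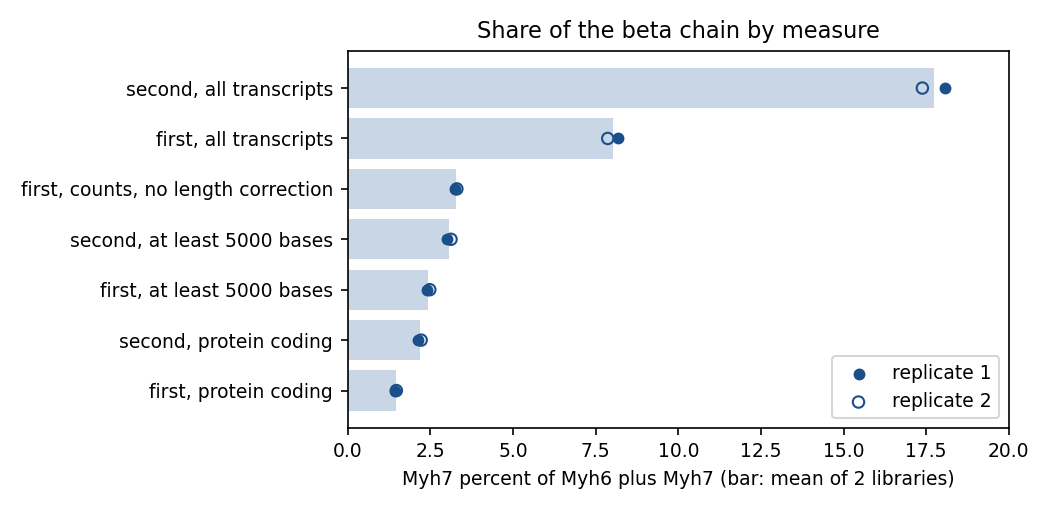
Myh7 as a percent of Myh6 plus Myh7 (horizontal axis) under 7 measures, with the mean of the 2 libraries as a bar, replicate 1 as a filled point and replicate 2 as an open one. The 2 TPM measures over all transcripts give 17.7% and 8.01%, and the other 5 lie between 1.45% and 3.27%.

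Myh6 too was divided, but mostly within protein-coding transcripts. Myh6-201 (6113 bases) held 43.2% and 40.3% of its TPM in replicates 1 and 2, and Myh6-205 (6008 bases) 15.6% and 17.7%. The short Myh6-207 (542 bases at the 3′ end, 3 of them outside the exons of Myh6-201) held 27.5% and 28.0%, and Myh6-202 (376 bases at the 5′ end) 10.6% and 10.5%. The second quantification kept Myh6-207 at 29.3% in both libraries but listed Myh6-202 at 0. Of the 2 long forms, Myh6-205 made up 26.6% and 30.5% in the first quantification and 9.88% and 9.83% in the second, so their ratio differed more between methods than between libraries. In Myh6-207, 56.6% of the 31-base words are shared with Myh7.

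Myh7b was divided between a full-length and a short transcript. Myh7b-201 (6163 bases) held 7.56 and 9.01 TPM in replicates 1 and 2. Myh7b-203, a retained-intron transcript of 674 bases at the 3′ end, held 6.94 and 9.03 TPM, so the first quantification put it level with the full-length form, at 43.8% and 44.0% of the gene. It rested on 112 and 141 expected counts, against 1289 and 1483 for Myh7b-201. The second quantification gave it 25.1% and 30.9%. Myh7b-202, a processed transcript of 667 bases, held 8.48% and 12.2%. The end of Myh7b overlaps Trpc4ap on the opposite strand, which had 34.0 and 33.4 TPM. That overlap starts at 155634271, and Myh7b-203 ends before it, at 155634203.

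Non-muscle and smooth muscle chains are made in versions that differ by small alternative exons in the head loops or at the tail's end, and the annotation holds such exons for 3 members. In Myh10 they encode the inserts known from neurons, in the loop by the ATP pocket and in the loop that meets actin. Capitals mark the alternative exon and lower case the 15 coding bases on each side in the transcript (mm10, plus strand).
Myh10-201, chr11:68745935-68745964: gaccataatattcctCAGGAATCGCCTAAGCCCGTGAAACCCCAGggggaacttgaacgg
Myh10-201, chr11:68775365-68775427: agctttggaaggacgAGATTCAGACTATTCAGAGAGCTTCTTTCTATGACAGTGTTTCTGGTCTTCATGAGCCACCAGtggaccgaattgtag

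Myh10-201, the full-length transcript with both exons (10 and 21 codons), was listed at 0 TPM in both libraries in the first quantification, and at 0.14 and 0 TPM in replicates 1 and 2 in the second. Myh10-203, which lacks both, held 11.6 and 14.5 TPM, 62.9% and 69.5% of the gene. A processed transcript of 1811 bases, Myh10-206, held 22.5% and 18.4%, and the second quantification listed it at 0. The long Myh10-202 went the other way, at 0 in the first and 1.39 and 2.61 TPM in the second.

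Myh11 carries a 7-codon insert in the head loop by the ATP pocket, which marks the faster SM-B type of smooth muscle, and an exon near the 3′ end that gives the shorter SM2 tail. Both are shown on the minus strand, the first with 15 bases on each side, the second with 15 bases before it and only its 28 coding bases of 39.
Myh11-204, chr16:14248580-14248600: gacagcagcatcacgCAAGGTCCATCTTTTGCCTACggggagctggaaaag
Myh11-202, chr16:14198050-14198088: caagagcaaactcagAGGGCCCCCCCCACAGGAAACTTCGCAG

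Most Myh11 RNA had neither exon. Myh11-201 held 8.71 and 6.83 TPM in replicates 1 and 2, 73.3% and 73.1% of the gene. Myh11-204, with the head insert, held 2.34 and 1.63 TPM, which was 20.1% and 18.3% of the 3 full-length transcripts in the first quantification and 28.1% and 27.8% in the second. Myh11-202, with the SM2 exon, held 0.62 and 0.43 TPM, 5.31% and 4.84% of the full-length transcripts in the first and 10.3% and 10.2% in the second. For both exons the methods differed by more than the libraries did.

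Myh14 has counterparts of both Myh10 inserts, of 8 and 41 codons (minus strand, capitals and lower case as before).
Myh14-201, chr7:44657417-44657440: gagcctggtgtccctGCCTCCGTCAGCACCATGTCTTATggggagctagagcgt
Myh14-204, chr7:44635454-44635576: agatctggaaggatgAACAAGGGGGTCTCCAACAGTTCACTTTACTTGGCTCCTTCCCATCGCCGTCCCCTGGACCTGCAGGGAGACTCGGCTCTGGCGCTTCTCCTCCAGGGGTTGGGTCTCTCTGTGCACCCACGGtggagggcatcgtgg

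Myh14-202, with neither exon, held 12.2 and 13.9 TPM in replicates 1 and 2, 40.1% and 47.6% of the gene. Myh14-201 held 2.14 and 0.98 TPM, 14.5% and 6.43% of the 4 full-length transcripts, but 0.324 TPM in replicate 1 and almost 0 in replicate 2 in the second quantification. Myh14-204 held 0.42 and 0.12 TPM in the first and 0.583 and 0.974 TPM in the second, so even the library with the higher value changed with the method. The rest of Myh14 lay largely in the processed transcript Myh14-205 (24.4% and 22.1%) and in Myh14-207, a protein-coding fragment of 471 bases (27.1% and 25.9%, from 85.8 and 76.3 expected counts).

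Myh9 was the simplest of the non-muscle genes. Myh9-201 (7433 bases) held 75.9% and 75.1% of its TPM in replicates 1 and 2 in the first quantification, and 87.8% and 89.6% in the second. The processed transcript Myh9-203 (720 bases) held 17.0% and 19.2% in the first, against 5.02% and 2.40% in the second.

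By transcript type, protein-coding transcripts held from 16.7% of the TPM (Myh7) to 98.7% (Myh6) in the mean of the libraries. The values were 96.7% for Myh11, 76.8% for Myh14, 76.0% for Myh9, 70.6% for Myh10 and 45.8% for Myh7b. Of 50 annotated transcripts of the 7 genes, 7 were at 0 in both libraries and both quantifications. The leading transcript by mean share was the same in both quantifications for all 7 genes, and Myh7 was the only one led by a transcript under 5000 bases in the first.

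**Figure D4:**
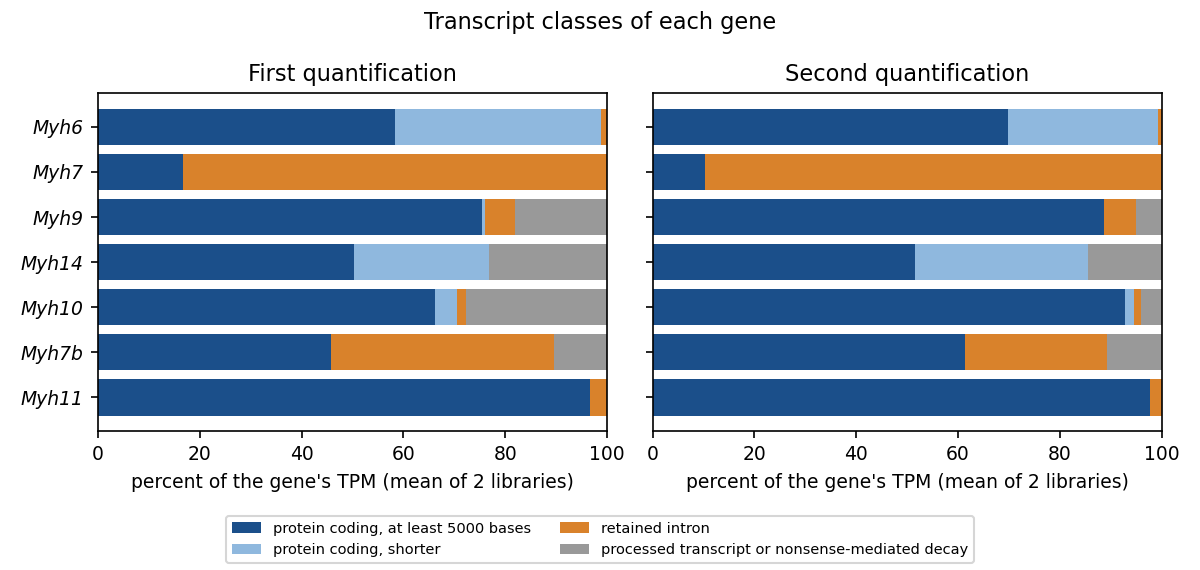
Percent of each gene's TPM (mean of 2 libraries, horizontal axis) in protein-coding transcripts of at least 5000 bases, shorter protein-coding transcripts, retained-intron transcripts and other types, in the first (left) and second (right) quantification. Retained-intron transcripts fill most of Myh7 in both, and protein-coding transcripts 98.7% of Myh6 in the first.

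Between the libraries most members moved little. A difference was counted as past a rule of size when the TPM ratio of replicate 1 over replicate 2, divided by the median ratio of 0.979, was at least 1.2-fold either way, over genes with a mean of at least 1 TPM and 50 expected counts. By this rule 2 of 7 members differed, against 23.2% of the 12280 genes tested, so the share among the members was near that of all genes. Myh11 was 1.30-fold higher in replicate 1 and Myh7b was at 0.787 of its replicate 2 level. The Myh7b difference was no longer past the rule with TMM factors (0.837) or DESeq2 size factors (0.839) on the counts, and Myh10 was past it with TMM factors (0.832). Myh6, Myh7, Myh9, Myh10 and Myh14 had ratios between 0.903 and 1.06.

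The ratio of CPM (counts scaled to the total in annotated genes) of Myh11 was 1.28, with an exact interval of 1.197 to 1.365 at 95% that covers counting error only. Smooth muscle markers were divided. By the scaled TPM ratio, which was 1.30 for Myh11, 3 of 5 were higher in replicate 1. These were Cnn1 at 1.82, Tagln at 1.102 and Des, which cardiomyocytes also express, at 1.04, while Acta2 was at 0.953 and Smtn at 0.955. Cnn1, a calponin of contractile smooth muscle, was the 1 marker of the 5 past the rule (3.98 and 2.23 TPM), beside 23.2% of all genes tested. The airway epithelium markers were higher in replicate 1 as given above, led by the club cell secretory protein gene Scgb1a1 (97.6 and 5.96 TPM), and their part in the Myh11 difference was not tested. For Myh7b the CPM ratio was 0.812 (0.756 to 0.872), and for Myh10 0.807 (0.767 to 0.850), although its TPM ratio of 0.903 stayed within the rule.

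**Figure D5:**
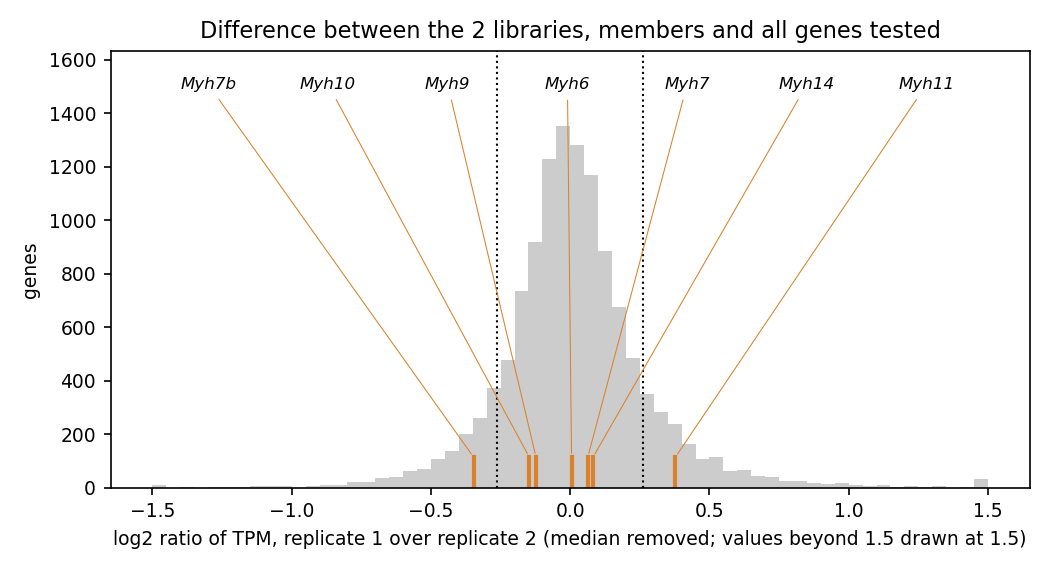
Log2 ratio of TPM, replicate 1 over replicate 2 with the median removed (horizontal axis), for all genes tested (grey histogram, genes per bin) and the 7 members (orange marks), with dotted lines at 1.2-fold. Myh11 at 0.38 and Myh7b at -0.35 lie outside the lines and the other 5 between them.

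The class II heavy chains of skeletal muscle and related tissues, Myh1, Myh2, Myh3, Myh4, Myh8, Myh13 and Myh15, were near absent, with 4 expected counts in replicate 1 and 127 in replicate 2 over the 7 genes together. None reached 1 TPM in the first quantification. In the second, Myh1 had 0.0506 and 1.33 TPM in replicates 1 and 2, and the other 6 genes stayed at or below the 0.297 TPM of Myh8 in replicate 2. In the first, Myh1 had 0 and 63.3 expected counts, Myh2 0 and 29.4, Myh4 0 and 18.3 and Myh8, the perinatal chain, 4 and 14.9. Myh3, the embryonic chain, had 0 and 1, and Myh13 and Myh15 had 0 in both libraries, and a listed 0 leaves room for as many as 3 counts (0.0829 CPM in replicate 1 and 0.0873 CPM in replicate 2). In the first quantification the counts of these chains lay mostly in replicate 2. In the second, replicate 1 was above 0 for 6 of the 7 genes, and the libraries were closer for Myh8 (0.186 and 0.297 TPM), Myh13 (0.0689 and 0.111 TPM) and Myh3 (0.0357 and 0.0463 TPM). Fast skeletal muscle markers summed to 4.82 and 5.77 TPM without a common direction: Mylpf had 0.45 and 1.33 TPM, Atp2a1 0.20 and 0.81 and Tnnt3 0.52 and 1.00, while Tnni2 had 3.28 and 2.47 and Actn3 0.37 and 0.16. None of the 5 was at 0, and their part in the replicate 2 counts was not tested.

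Several genes are transcribed within or across the members. Mhrt, a noncoding RNA antisense to Myh7 that is known to protect the mouse heart under load, had 49.5 and 42.4 TPM in replicates 1 and 2, and Gm31251, also antisense to Myh7, had 30.3 and 23.3 TPM. Gm49130, antisense over the 3′ end of Myh6, had 1.29 and 1.03 TPM in the first quantification but 10.9 and 10.01 in the second. The spike-in label names a profile for stranded libraries, but no source used here says whether the quantification used strand, so reads of these pairs may have been divided unevenly. The microRNA genes Mir208a, Mir208b and Mir499 lie in introns of Myh6, Myh7 and Myh7b. Their hairpins of 83, 77 and 79 bases had an effective length of 0, so the first quantification could give them no counts, and their 0 says nothing of their level.

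Heavy chains work with light chains, and 11 light chain genes had a median level of 154 TPM, against 9.87 TPM over all genes tested. The ventricular regulatory chain Myl2 had 6897 and 7564 TPM in replicates 1 and 2 and the ventricular essential chain Myl3 had 4715 and 5099 TPM. The atrial regulatory chain Myl7 had 355 and 321 TPM, and Myl12a, a regulatory chain of non-muscle myosin, had 305 and 326 TPM. The fast skeletal Mylpf was the 1 light chain under 1 TPM, and 0 of the 9 tested passed the rule of size, beside 23.2% of all genes tested. The striated heavy chains exceeded Myl3 plus Myl4 by 2.24-fold and 2.13-fold in the first quantification and by 1.52-fold and 1.38-fold in the second. The excess was 1.24-fold and 1.16-fold in the first when heavy chain transcripts under 5000 bases were left out. In the second, the long striated heavy chain transcripts summed to 6719 and 6938 TPM in replicates 1 and 2. That was below Myl3 alone (7097 and 8056 TPM), so this comparison turned too. Over Myl2 plus Myl7 the ratio was 1.55 and 1.44 in the first quantification, 0.745 and 0.703 in the second, and 0.856 and 0.791 in the first with the long heavy chain transcripts only, so which class had more RNA turned with the method as well as with the transcripts counted. Myh9, Myh10, Myh11 and Myh14 together had 0.796 and 0.788 of the level of Myl6, their shared essential chain, in the first quantification, 0.440 and 0.443 in the second, and 0.550 and 0.554 in the first with long transcripts only.

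Partners of the thick filament had a median level of 212 TPM. Of 9 genes, 7 had at least 1 TPM, led by titin, Ttn (1096 and 1005 TPM in replicates 1 and 2), Mybpc3 (712 and 765 TPM), the cardiac myosin-binding protein C, and the M-band genes Myom1 (478 and 457 TPM) and Myom2 (199 and 237 TPM). The atrial Mybphl was the 1 of 7 tested past the rule of size, at 22.5 and 18.7 TPM, beside 23.2% of all genes tested. For myosin folding and assembly, all 6 genes were at 1 TPM or more (median 111 TPM) and 0 passed the rule, beside the same 23.2%. Hspa8 had 439 and 408 TPM and Hsp90ab1 375 and 386 TPM, both general chaperones. Smyd1, a muscle methyltransferase that binds myosin, had 147 and 158 TPM, and Unc45b, the muscle myosin chaperone, 67.7 and 71.2 TPM.

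Of 10 genes for the kinases and the phosphatase that set light chain phosphorylation, 9 had at least 1 TPM and the median was 33.9 TPM. The phosphatase catalytic subunit Ppp1cb led with 200 and 207 TPM in replicates 1 and 2, followed by the cardiac light chain kinase Mylk3 (150 and 156 TPM), Mylk4 (91.7 and 89.0 TPM) and the phosphatase subunit Ppp1r12b (58.8 and 60.02 TPM). Mylk, the kinase of smooth muscle, had 15.9 and 13.5 TPM and Ppp1r12c 34.4 and 26.3 TPM, both higher in replicate 1. They were the 2 of 9 tested past the rule of size, beside 23.2% of all genes tested. All 13 regulators of the cardiac heavy chain genes had at least 1 TPM (median 32.6 TPM). Of the 13 tested, 2 were past the rule, beside 23.2% of all genes tested. Mef2a had 65.5 and 70.4 TPM, Tead1 61.5 and 57.7 TPM and Mef2d 54.3 in both libraries. The thyroid hormone receptor genes Thra and Thrb had 51.4 and 59.7 TPM and 11.0 and 10.6 TPM. Gata4 was lower in replicate 1 (39.6 and 50.2 TPM) and Med13, a target of miR-208a in mouse heart, was higher there (22.2 and 16.1 TPM).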

How the data were processed

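Total RNA libraries of heart were compared as 1 group of 2. The authors' deposited gene and transcript tables (the first quantification, with columns as RSEM writes them) hold, per the file headers, expected counts, TPM, a posterior mean TPM, its interval bounds (a score, not used in the text) and the percent of a gene in each transcript. A further set of deposited transcript tables (the second, with columns as kallisto writes them) holds estimated counts and TPM per the file headers, summed here per gene. The readme files name mm10 and GENCODE M21. Aligner, programs, versions and the handling of CAST/EiJ alleles and of strand were not given in the sources used here. Effective lengths lay 99 bases below transcript lengths in the first quantification and 335 and 334 in the second.

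Members were matched by symbol and gene identifier, and types and positions came from GENCODE M21. Values are means ± SD (n = 2). The rule of size used a 1.2-fold ratio, at least 1 TPM and 50 expected counts, with exact Clopper-Pearson intervals. It was also run on simulated counts with counting error only. That run cannot show how often the rule calls a gene through spread between libraries. Alternatives were scaling by edgeR 4.0.16 (TMM) and DESeq2 1.42.0 factors on rounded expected counts, other folds and filters, other estimates and other sets of transcripts. Words of 31 bases and windows of 100 bases were compared on the sense strand of M21 transcripts. Software was R 4.3.3 and, under Python 3.11.15, scipy 1.17.1, pandas 2.3.3, matplotlib 3.10.9 and numpy 2.4.6.

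The members, lists and rules were chosen with earlier results of these data known. Named are all members, every transcript with at least 10% of its gene in either quantification, the alternative-exon transcripts, the other class II heavy chains, hosted microRNA genes, and of each list the 4 highest genes and any past the rule. Overlapping genes, alternative exons and shared words were chosen after values were seen, as were the fast skeletal and airway markers named singly.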

Additional observations from a re-analysis of the deposited data

How the results depend on the processing

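The percent of Myh7 in Myh6 plus Myh7, 8.01, was 17.7 in the second quantification, 1.45 with protein-coding transcripts only, 3.27 in expected counts with no correction for length, and 2.43 with transcripts of at least 5000 bases only, an alternative chosen after seeing the data. It ran from 7.87 to 8.16 with each replicate left out in turn and was 8.00 with the posterior mean. Both restrictions on transcripts leave out Myh7-206 by construction. With it alone left out, replicates 1 and 2 had 1.42 and 1.45 in the first quantification and 2.11 and 2.21 in the second. Plain counts lack the length correction, under which short transcripts weigh more. Effective length, the divisor of TPM, lay 99 bases below transcript length in the first quantification and 335 and 334 in the second. That is a larger part of the 595 bases of Myh7-206 than of the 6135 bases of Myh7-201. Its part in the different shares of Myh7-206 by TPM was not tested. The striated-muscle share, 98.9%, was 99.1% with protein-coding transcripts, 98.4% in counts, 98.7% with transcripts of at least 5000 bases and 98.92% to 98.95% with each replicate left out. The order of levels kept 5 pairs without overlap except for 4 with transcripts of at least 5000 bases, and Myh7b fell below Myh11 there and with protein-coding transcripts only. The number of members past the rule of size, 2, was 1 with DESeq2 size factors (Myh11, beside 18.0% of all genes tested), 0 at 1.5-fold (4.48%), 3 at 1.1-fold (47.5%) and 3 in the second quantification (26.3%). It was 2 with TMM factors (18.0%), but these were Myh10 and Myh11. The mean TPM of a member moved by over 1 SD between libraries for 4 of 7 in the second quantification, 6 with protein-coding transcripts only, 6 with long ones and 2 with the posterior mean. Rescaling to nuclear protein-coding genes multiplies all members alike, and leaving out 1 of 2 libraries cannot move a mean by 1 SD, so neither bears on stability. The protein-coding percent moved for 6 of 7 in the second quantification. No paired analysis was possible because the series has 1 group. With 2 libraries, a spread cannot be told from a chance gap, and transcripts under 150 expected counts, such as Myh7b-203 and Myh14-207, rest on few reads.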
